A study of Bubalus bubalis with 6 samples.

Results

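The genes of DNA replication origins and forks were followed by RNA-seq in muscle stem cells (MuSCs) of the water buffalo as the cells went from proliferation to differentiation. Members were taken by symbol from the deposited gene table. Of 53 symbols named for the machinery, 51 were listed among 24616 genes, and those of DUT (dUTPase) and RFC1 (the large clamp loader subunit) were not. The cells were primary MuSCs from the longissimus muscle of buffalo at an embryonic stage, a culture that can also hold other cells of the muscle. GM samples (n = 3) were proliferating cells in growth medium with fetal bovine serum, and DM samples (n = 3) were cells moved to differentiation medium with horse serum once nearly confluent, so medium, cell density and time in culture changed together and cannot be told apart. No allele or further agent was named for either group, and the labels give no hour of harvest for the DM samples. The labels also do not say whether the samples of a group were separate cultures, so p-values measure only the spread between these samples, which may be technical.

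A cell copies its genome from many origins. The origin recognition complex (ORC) marks an origin, CDC6 and CDT1 load the MCM helicase onto it in G1 phase, and geminin (GMNN) blocks reloading later in the cycle. At the start of S phase the CDC7-DBF4 kinase acts on loaded MCM, CDC45 and the GINS complex join it to make an active helicase, and DNA polymerases, the PCNA clamp, its loader, ligase and chromatin assembly factors follow at the fork. Myoblasts leave the cell cycle as they differentiate, and many replication genes are transcribed under E2F factors mainly in cycling cells.

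Counts assigned to genes were 35615864 to 40305237 per sample. Counts of DM replicate 3 stood apart: chi-square divided by its degrees of freedom was 40.5 to 41.4 against DM replicates 1 and 2, which gave 11.7 between themselves, and 6.22 to 10.6 between GM samples. The labelled cell type was checked on 6 markers of muscle stem cells and myoblasts, which did not move as 1 group (called here means a log2 fold change past 1 in size, the fold threshold, and an adjusted p under 0.05). DES was between 1787 and 2411 CPM (counts scaled to a common library size, with TMM factors) in all 6 samples. PAX7, the marker of muscle stem cells, was 18.3 to 18.7 CPM in GM and 6.11 to 12.3 in DM samples. Its log2 fold change of -0.92 came to -1.11, past the threshold, without DM replicate 1, and also passed it on library size alone. MYF5 was 137 CPM or more in GM and 25.8 or less in DM samples. It was the only one of the 6 past the fold threshold with all 6 samples and TMM factors. NCAM1 and CDH15 were also lower, with log2 fold changes of -0.60 and -0.53. MYOD1 was higher in every DM sample, at 30.6, 30.8 and 36.1 CPM in GM and 67.2, 75.0 and 39.3 in DM samples. Its log2 fold change was 0.90 (edgeR's adjusted p = 0.0020), and 1.14, past the threshold, without DM replicate 3. All 7 listed markers of differentiated muscle were called higher in DM samples. Markers of fibroblasts, which the culture could also hold, summed to 24891 to 25121 CPM in GM and 77342 to 97279 in DM samples. Of the 7, 6 were called higher, and DM replicate 3 had the lowest sum of the DM samples. The collagen genes COL1A1 and COL3A1 held most of the sum, with means of 15287 and 8298 CPM in GM and 44328 and 39251 in DM samples. PDGFRA was not called (log2 fold change 0.58), and whether the share of fibroblasts changed was not tested. Summed adipocyte markers were 2.19 to 3.51 CPM in GM and 6.78 to 8.08 in DM samples, and CIDEC held most of this sum (means of 2.67 and 6.64 CPM). Of the 4 tested, 2 were called higher: CIDEC, at 77 to 140 counts in GM and 204 to 271 in DM samples, and FABP4, at no more than 1 and 13 to 16 counts. The groups overlapped for the others, ADIPOQ (3 to 8 and 1 to 14 counts) and PLIN1 (1 to 11 and 1 to 21 counts). Summed endothelial markers were 2.77 to 3.22 CPM in GM and 0.977 to 1.56 in DM samples, with 3 of 5 called lower, all on low counts. VWF had 38 to 54 counts in GM and 9 to 24 in DM samples, CDH5 6 to 32 and 1 to 8, and TIE1 6 to 11 and 0 to 3. The groups overlapped for CDH5, and DESeq2 did not call TIE1. Immune markers summed to 5.25 to 6.63 CPM in GM and 2.35 to 3.58 in DM samples. Of the 3 tested, 1 was called lower, CD68 (175 to 237 counts in GM and 76 to 105 in DM samples). Its log2 fold change of -1.04 was near the threshold. The call was lost without GM replicate 1, GM replicate 2 or DM replicate 3. It was also lost with upper quartile scaling, a filter on RPKM or a test against a change of 2-fold. Of the markers of these other cell types, LEP, PECAM1, PTPRC and CD3E had no more than 8 counts in any sample.

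Replication genes were lower in DM samples almost throughout. Of the 51 members, 40 fell and none rose by more than 1 on the log2 scale with an adjusted p under 0.05 (edgeR's quasi-likelihood test, Benjamini-Hochberg over 15576 genes), which is 78.4% of the members beside 10.3% of all genes tested for falls and 15.0% for rises. Every DM sample lay below every GM sample in 48 members (94.1%, beside 34.3% of all genes), and the same number had an adjusted p under 0.05 and a lower value at any fold (94.1%, beside 31.4%). The groups overlapped for ORC4, CDC7 and RPA1. DESeq2 also called none higher, and no member above its GM level had an unadjusted p under 0.05 in edgeR (0 of the 2, ORC4 and CDC7). The median log2 fold change of the members was -1.55, against 0.03 for all genes tested, and 38 members lay at or under the 10th percentile of all genes. Summed over the members, CPM were 4400, 4556 and 4440 in GM replicates 1 to 3 and 1356, 1393 and 1503 in DM replicates 1 to 3. These genes took 0.456 to 0.470% of all gene counts in GM and 0.129 to 0.146% in DM samples. In a bulk sample, fewer replicating cells and less RNA per cell cannot be told apart.

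**Figure D1:**
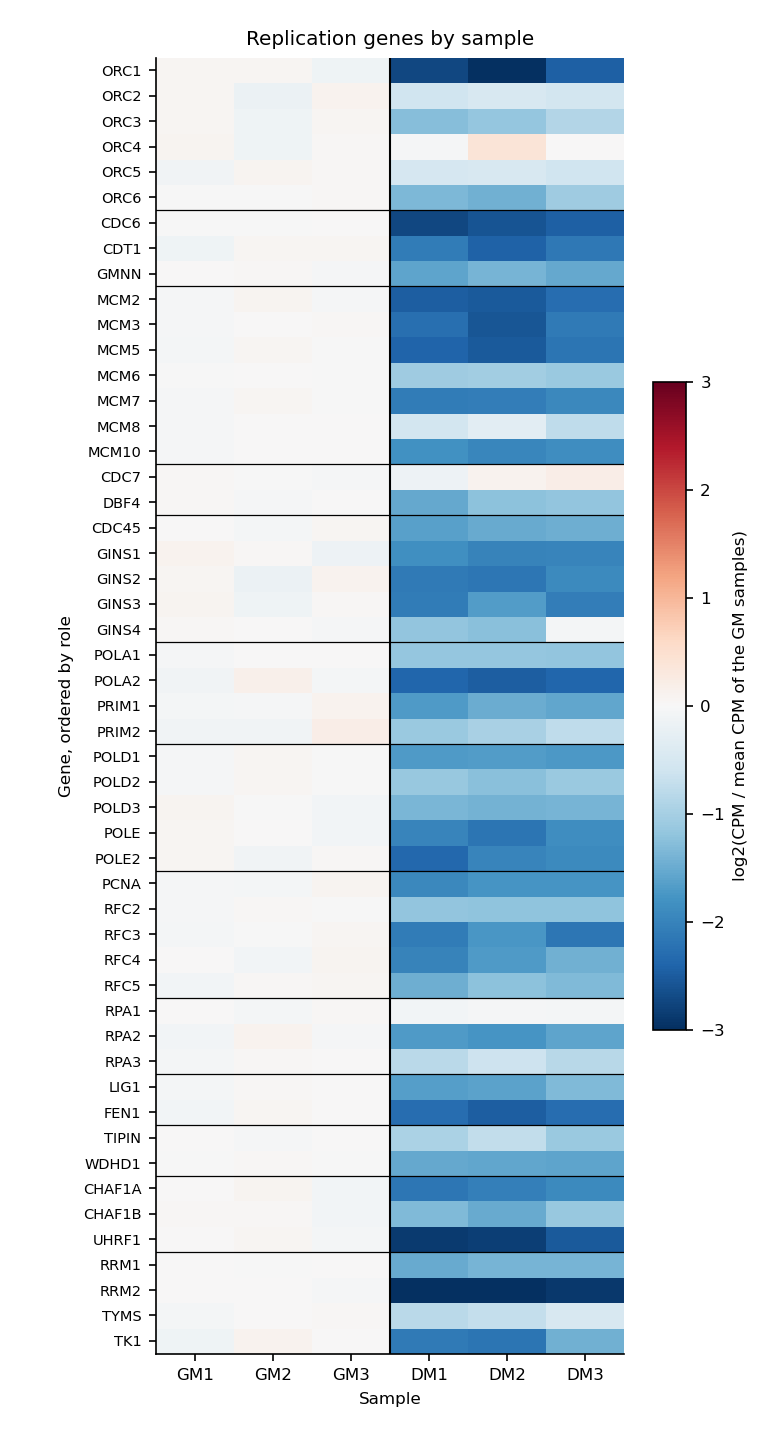
Replication genes in each sample, as log2 of CPM over the mean CPM of the GM samples, with 1 row per gene in order of role (lines part the roles) and 1 column per sample. The 3 DM columns are blue (lower) in nearly every row, and the paler rows ORC4, CDC7 and RPA1 are those whose groups overlap.

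All 6 proliferation markers were called lower in the same samples, with log2 fold changes between -2.65 (BIRC5) and -1.44 (AURKB). Their summed level was 1174 to 1205 CPM in GM and 220 to 270 in DM samples, and MKI67 had a log2 fold change of -2.34. DM replicate 3 was the highest of the DM samples in 27 of the 51 members and the lowest in 9. Without it 42 members were called lower, with a median of -1.57. The part of proliferation and of fibroblast marker levels in the changes of the members was not tested.

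**Figure D2:**
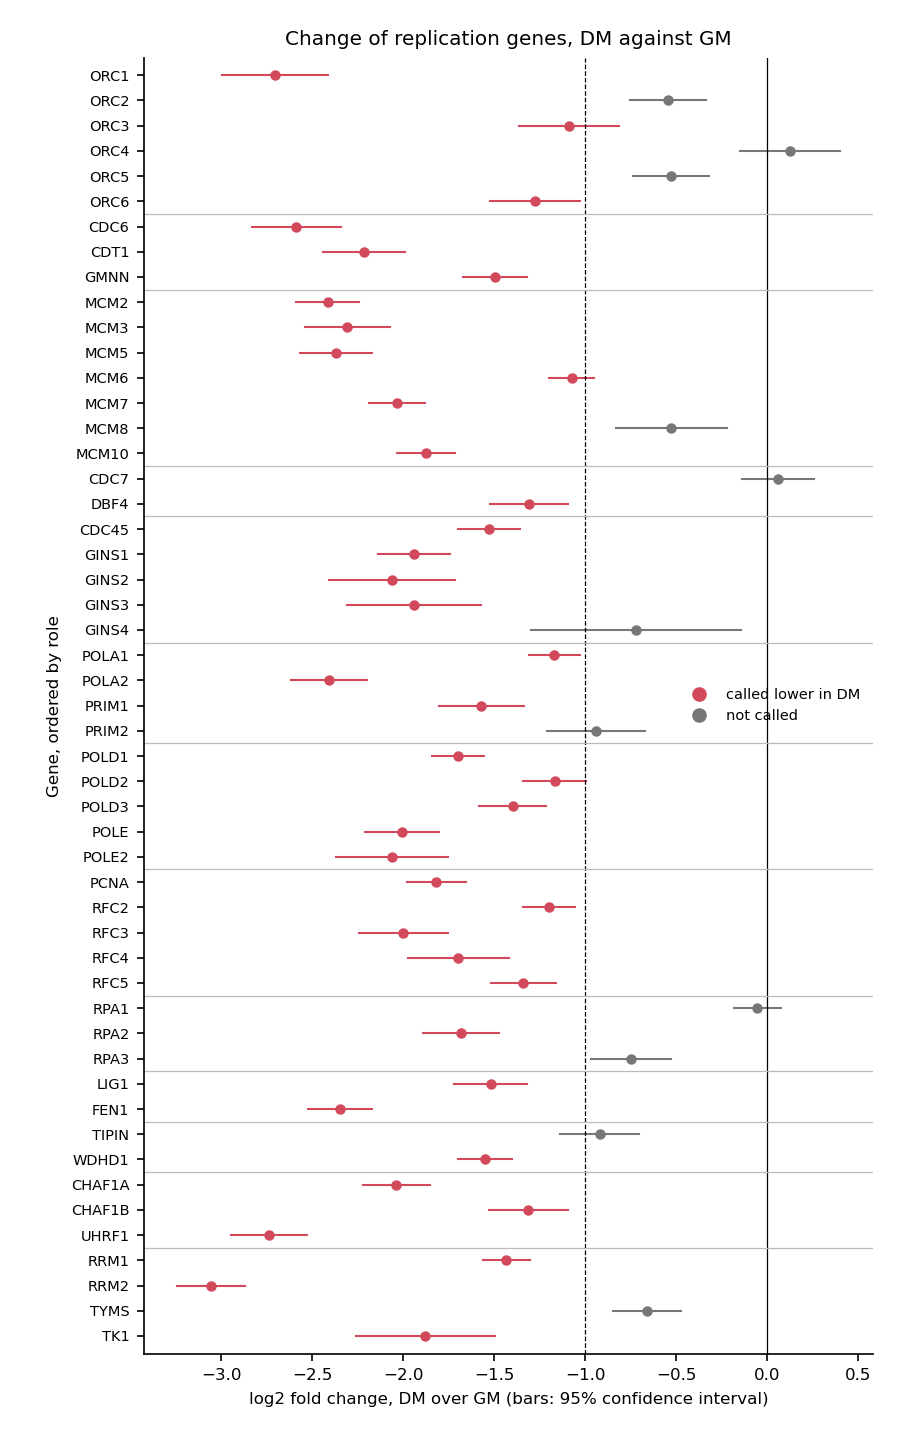
Log2 fold change (DM over GM) from edgeR of each replication gene with an approximate 95% confidence interval, ordered by role. The dashed line marks a log2 fold change of -1, the 40 called genes are red and the 11 others grey, and the values run from -3.05 (RRM2) to 0.13 (ORC4).

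Among the origin recognition subunits, 3 of 6 were called lower (beside 10.3% of all genes tested) and the others did not pass the fold threshold. ORC1, the ATPase subunit whose level is known to follow the cell cycle, was at 39.1, 39.3 and 34.3 CPM in GM replicates 1 to 3 and at 5.63, 4.75 and 6.92 in DM replicates 1 to 3 (all triplets of values below are in this order). Its DM values were all far under its lowest GM value, and the log2 fold change was -2.70 (95% confidence interval -2.99 to -2.41, edgeR's adjusted p = 4.29e-08). ORC4, another AAA+ subunit of the same complex, gave 17.5, 14.998 and 16.7 CPM in GM and 15.9, 21.3 and 16.4 in DM samples. The groups overlapped, DM replicate 2 was the highest of all, and the log2 fold change of 0.13 (-0.15 to 0.40, edgeR's adjusted p = 0.395) became -0.0038 without that sample.

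ORC3, a subunit of the ORC core, stood just past the threshold. It was at 18.5, 16.3 and 18.4 CPM in GM and 7.37, 7.98 and 9.67 in DM samples, which did not overlap, and its log2 fold change of -1.09 (-1.36 to -0.82, edgeR's adjusted p = 2.03e-05) came to -0.9993, no longer past the threshold, without DM replicate 1. ORC6, the smallest subunit, fell by 1.28 on the log2 scale. ORC5 gave 17.1, 19.5 and 19.0 CPM in GM and 13.1, 13.3 and 12.2 in DM samples, again without overlap. Its log2 fold change was -0.53 (edgeR's adjusted p = 0.000594), and ORC2 was close to it at -0.54.

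Per length, the order of the ORC genes differed between the groups, most of all in the place of ORC1. RPKM divides counts by gene length and by the sample's gene counts. The lengths come from an annotation with cattle identifiers and no named build, so the order of different genes within a group is uncertain. Both groups use the same lengths. On this scale the GM means ran ORC6 18.6, ORC1 14.2, ORC4 12.0, ORC5 9.01, ORC3 7.45 and ORC2 7.27, and neighbours in this order did not overlap except for ORC3 and ORC2. In DM samples the order was ORC4 12.3, ORC6 7.17, ORC5 5.84, ORC2 4.66, ORC3 3.27 and ORC1 2.04, with no overlap between neighbours. ORC1 went from the second place to the last, while the others, among them ORC4 from the third to the first, moved by no more than 2 places. The ratio of ORC1 to ORC4 was 1.16, 1.35 and 1.06 in GM and 0.182, 0.115 and 0.217 in DM samples, 7.13-fold lower on the geometric mean.

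**Figure D3:**
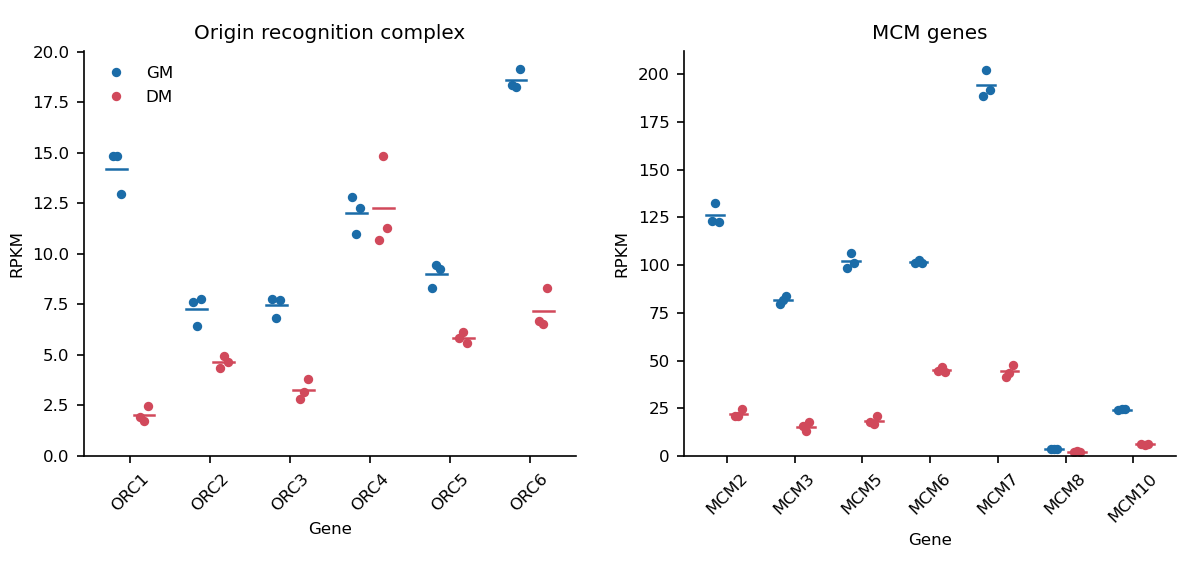
RPKM of the ORC genes (left) and the MCM genes (right) in each sample, with points for samples and lines for group means. ORC1 drops from 14.2 to 2.04 RPKM while ORC4 stays near 12, and MCM6 (45.1 RPKM) is level with MCM7 (44.3 RPKM) in DM samples only.

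All 3 licensing genes fell. CDC6, the loader ATPase, was at 22.5, 22.4 and 22.7 CPM in GM and 3.38, 3.74 and 4.11 in DM samples. Its GM samples were nearly level, every DM sample was far under them, and the log2 fold change was -2.59 (-2.83 to -2.34, edgeR's adjusted p = 1.95e-08). CDT1, which brings MCM to the origin with CDC6, fell by 2.22 on the log2 scale. Its gene overlaps APRT on the other strand by 6 bases, and APRT counts were 3665 to 4177 over the 6 samples. Geminin, the inhibitor of CDT1, fell least of the 3. GMNN values were 41.4, 42.1 and 40.4 CPM in GM and 13.9, 15.8 and 14.2 in DM samples, without overlap, for a log2 fold change of -1.49 (-1.67 to -1.32, edgeR's adjusted p = 7.15e-08).

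Of the 7 MCM genes among the members, 6 were called lower (beside 10.3% of all genes tested). MCM7, MCM2, MCM5 and MCM6 had the highest mean RPKM of all members in GM samples. MCM2, a subunit of the MCM2-7 helicase, was at 363, 393 and 362 CPM in GM and 67.3, 65.5 and 76.9 in DM samples. The groups were widely apart, with a log2 fold change of -2.41 (-2.59 to -2.24, edgeR's adjusted p = 4.44e-09). MCM5 and MCM3, subunits of the same ring, were close to it at -2.37 and -2.31, and MCM7 was at -2.03. MCM10, which acts when the helicase is activated, fell by 1.87.

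MCM6 moved less than the other helicase subunits listed. It was at 221, 225 and 222 CPM in GM and 106, 108 and 103 in DM samples, tight within each group and without overlap. The log2 fold change was -1.07 (-1.20 to -0.95, edgeR's adjusted p = 7.43e-08), near the threshold. MCM9, which is outside the members, did not pass the threshold, with a log2 fold change of -0.48. MCM8, a paralogue that works with MCM9 in recombination rather than in the replicative ring, had the smallest change of the MCM genes among the members. It gave 9.52, 9.71 and 9.81 CPM in GM and 6.63, 7.79 and 5.76 in DM samples, all DM values being lower, and a log2 fold change of -0.53 (edgeR's adjusted p = 0.00643).

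In RPKM the GM means ran MCM7 194, MCM2 126, MCM5 102, MCM6 102 and MCM3 81.7, with overlap between MCM5 and MCM6 only. The limit on lengths given for the ORC genes holds for this order too. In DM samples they ran MCM6 45.1, MCM7 44.3, MCM2 22.1, MCM5 18.4 and MCM3 15.4. The samples of MCM6 and MCM7 overlapped there, as did those of MCM2 and MCM5 and those of MCM5 and MCM3. The ratio of MCM2 to MCM6 was 1.22, 1.29 and 1.21 in GM and 0.468, 0.449 and 0.555 in DM samples. MCM4, the remaining subunit of the ring, is not among the listed symbols.

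The origin firing kinase was split between its subunits. DBF4, the regulatory subunit whose level is known to be periodic in the cell cycle, was at 35.4, 33.5 and 34.5 CPM in GM and 11.9, 14.6 and 15.2 in DM samples. It fell in every DM sample, with a log2 fold change of -1.31 (-1.52 to -1.09, edgeR's adjusted p = 8.55e-07). CDC7, the catalytic subunit, gave 39.0, 37.9 and 37.3 CPM in GM and 34.4, 41.2 and 43.4 in DM samples. DM replicate 1 was the lowest of the 6 and the other DM samples were the highest, so the groups overlapped. Its log2 fold change was 0.06 (-0.14 to 0.26, edgeR's adjusted p = 0.58), and it was -0.04 on library size alone. In RPKM the ratio of DBF4 to CDC7 was 1.28, 1.24 and 1.30 in GM and 0.487, 0.5003 and 0.492 in DM samples, a ratio with little spread in either group.

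CDC45 and 3 of the 4 GINS genes, which complete the active helicase, fell by 1.53 to 2.06 on the log2 scale. GINS2 had the largest change, from 9.98, 8.56 and 10.3 CPM in GM to 2.19, 2.13 and 2.57 in DM samples. Its counts were among the lowest of the list, and the groups were far apart, with a log2 fold change of -2.06 (-2.41 to -1.72, edgeR's adjusted p = 9.67e-07). GINS4 depended on 1 library. It was at 19.7, 19.6 and 18.8 CPM in GM and 8.50, 8.14 and 18.5 in DM samples, so that DM replicate 3 was just under the GM samples and the others far under them. From counts of 287, 298 and 686 in DM samples, the log2 fold change was -0.72 (-1.30 to -0.15, edgeR's adjusted p = 0.0317), and without DM replicate 3 it was -1.21 and past the threshold.

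Polymerase alpha with primase starts each new strand, and 3 of its 4 genes were called lower (beside 10.3% of all genes tested). POLA2, its regulatory subunit, was at 39.0, 46.3 and 39.7 CPM in GM and 8.05, 7.49 and 8.03 in DM samples. No DM sample came near a GM sample, and the log2 fold change was -2.41 (-2.62 to -2.20, edgeR's adjusted p = 1.19e-08). POLA1, the catalytic subunit, and PRIM1, the catalytic primase, fell by 1.17 and 1.57. PRIM2, the large primase subunit, gave 21.3, 21.2 and 26.3 CPM in GM and 10.7, 11.6 and 13.6 in DM samples. The groups did not overlap, replicate 3 was the highest in each, and the log2 fold change of -0.94 (-1.21 to -0.67, edgeR's adjusted p = 5.86e-05) came to -1.03, past the threshold, without DM replicate 3.

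Polymerases delta and epsilon extend the lagging and the leading strand, and all 5 of their genes among the members fell. POLE3 and POLE4, subunits of polymerase epsilon outside the members, did not pass the fold threshold, with log2 fold changes of -0.83 and -0.38. POLE2, an accessory subunit of polymerase epsilon, was at 17.8, 15.9 and 17.6 CPM in GM and 3.35, 4.34 and 4.57 in DM samples. That was a log2 fold change of -2.06 (-2.37 to -1.76, edgeR's adjusted p = 3.99e-07), next to -2.01 for POLE, its catalytic subunit. POLD2, an accessory subunit of polymerase delta, moved least, from 35.6, 38.2 and 36.4 CPM in GM to 16.7, 15.3 and 17.1 in DM samples. The groups were apart, with a log2 fold change of -1.17 (-1.34 to -0.997, edgeR's adjusted p = 3.66e-07). POLD1, the catalytic subunit, and POLD3 lay between at -1.70 and -1.40.

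The PCNA clamp and all 4 listed subunits of its loader fell, PCNA by 1.82 on the log2 scale. RFC3 was at 36.1, 37.6 and 39.1 CPM in GM and 8.76, 11.1 and 8.32 in DM samples, with DM replicate 2 highest of the latter. Its log2 fold change was -1.999 (-2.24 to -1.75, edgeR's adjusted p = 1.01e-07). RFC2 was at 69.4, 73.6 and 71.4 CPM in GM and 31.4, 31.0 and 31.0 in DM samples, among which it hardly varied. Its log2 fold change was -1.20 (-1.34 to -1.06, edgeR's adjusted p = 8.11e-08). RFC4 and RFC5, the other small subunits, were at -1.70 and -1.34.

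Replication protein A (RPA) coats single-stranded DNA at forks and in repair, and its subunits parted. RPA1, the large subunit, gave 121, 116 and 123 CPM in GM and 113, 118 and 116 in DM samples. The groups overlapped, and the log2 fold change was -0.05 (-0.18 to 0.07, edgeR's adjusted p = 0.437). RPA2, the middle subunit, was at 26.4, 29.9 and 27.2 CPM in GM and 8.59, 8.14 and 9.27 in DM samples. It fell in every DM sample, by 1.68 on the log2 scale (edgeR's adjusted p = 1.19e-07). RPA3, the small subunit, had a log2 fold change of -0.75, with all DM samples under all GM samples.

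The genes of Okazaki fragment maturation fell, FEN1 more than LIG1. FEN1, the flap nuclease, was at 76.2, 84.3 and 80.9 CPM in GM and 16.4, 14.6 and 16.4 in DM samples, or a log2 fold change of -2.35 (-2.52 to -2.17, edgeR's adjusted p = 5.92e-09). LIG1, the ligase that seals the fragments, was at 93.5, 99.3 and 97.1 CPM in GM and 30.6, 31.8 and 38.6 in DM samples, or a log2 fold change of -1.52 (-1.72 to -1.32, edgeR's adjusted p = 1.74e-07). In neither gene did the groups overlap, and DM replicate 3 was the highest DM sample for LIG1.

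Of the fork factors, WDHD1 was called lower and TIPIN did not pass the fold threshold. WDHD1, which couples polymerase alpha to the helicase, was at 56.5, 58.7 and 56.3 CPM in GM and 19.8, 19.5 and 19.2 in DM samples, with little spread in either group and a log2 fold change of -1.55 (-1.70 to -1.40, edgeR's adjusted p = 2.04e-08). TIPIN, the partner of TIMELESS in fork protection, was at 33.1, 32.1 and 32.8 CPM in GM and 16.9, 19.7 and 15.1 in DM samples. All its DM samples were lower, and the log2 fold change of -0.92 (-1.14 to -0.71, edgeR's adjusted p = 1.19e-05) came to -1.01, past the threshold, without DM replicate 2.

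All 3 genes that act on chromatin behind the fork fell. UHRF1, which recognises hemimethylated DNA and recruits DNMT1, had the second largest change of all members. It was at 371, 386 and 354 CPM in GM and 50.2, 52.5 and 64.1 in DM samples, far apart, with a log2 fold change of -2.73 (-2.94 to -2.53, edgeR's adjusted p = 6.17e-09). CHAF1A, the large subunit of the histone chaperone CAF-1, fell by 2.04. CHAF1B, its middle subunit, was at 38.6, 39.0 and 35.8 CPM in GM and 15.2, 13.3 and 17.2 in DM samples, again without overlap, for a log2 fold change of -1.31 (-1.53 to -1.09, edgeR's adjusted p = 8.9e-07).

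Nucleotide supply held the largest change of the list. RRM2, the small subunit that limits ribonucleotide reductase in S phase, was at 202, 202 and 196 CPM in GM and 21.6, 23.7 and 26.8 in DM samples. Its DM samples kept about 12.0% of the GM level, and the log2 fold change was -3.05 (-3.24 to -2.87, edgeR's adjusted p = 1.66e-09). RRM1, the large subunit, fell by 1.43, and TK1, the cytosolic thymidine kinase, by 1.88. TYMS, which makes dTMP, was at 142, 149 and 151 CPM in GM and 84.2, 89.3 and 106 in DM samples. It was lower in every DM sample but only by 0.66 on the log2 scale (-0.85 to -0.47, edgeR's adjusted p = 5.65e-05). DM replicate 3 was the highest DM sample for TYMS as for TK1, whose DM counts were 441, 459 and 779.

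Subunits of a complex were compared through the ratio of their RPKM within each sample. Of 54 pairs, 41 (75.9%) had no overlap between the groups, beside 68.1% of all pairs of genes with a count in every sample and 80.8% of all pairs of the 51 members, so the count says nothing particular of subunits that share a complex. It was 13 of 15 in ORC, 7 of 10 in MCM, 3 of 6 in GINS and 3 of 6 among the loader subunits. With 3 samples against 3, the exact two-sided permutation test cannot go below p = 0.1, which all 41 pairs reached (0.132 after Benjamini-Hochberg adjustment over the 54 pairs), so no ratio can pass 0.05 here. The ratios are therefore given as values. RRM2 to RRM1, the subunits of ribonucleotide reductase, was 0.740, 0.753 and 0.716 in GM and 0.225, 0.230 and 0.261 in DM samples. RPA2 to RPA1 was 0.357, 0.422 and 0.360 in GM and 0.124, 0.113 and 0.131 in DM samples. In both pairs the 3 DM ratios lay far under the 3 GM ratios.

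The mean ratio of POLA2 to PRIM2 was 1.22 ± 0.224 (SD, n = 3) in GM and 0.442 ± 0.0556 in DM samples, and that of CHAF1A to CHAF1B 2.19 ± 0.0370 and 1.34 ± 0.158. CDT1 to its inhibitor GMNN was 0.715 ± 0.0564 in GM and 0.437 ± 0.0806 in DM samples. GINS2 to GINS4 was 1.71 ± 0.192 in GM and 0.757 ± 0.242 in DM samples, a log2 difference of -1.23 that was -0.93 without DM replicate 3. POLE2 to POLE overlapped between the groups, at 1.13 ± 0.0967 and 1.09 ± 0.217 (exact two-sided permutation p = 0.8). The 3 ratios among MCM2, MCM3 and MCM5 also overlapped between the groups.

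**Figure D4:**
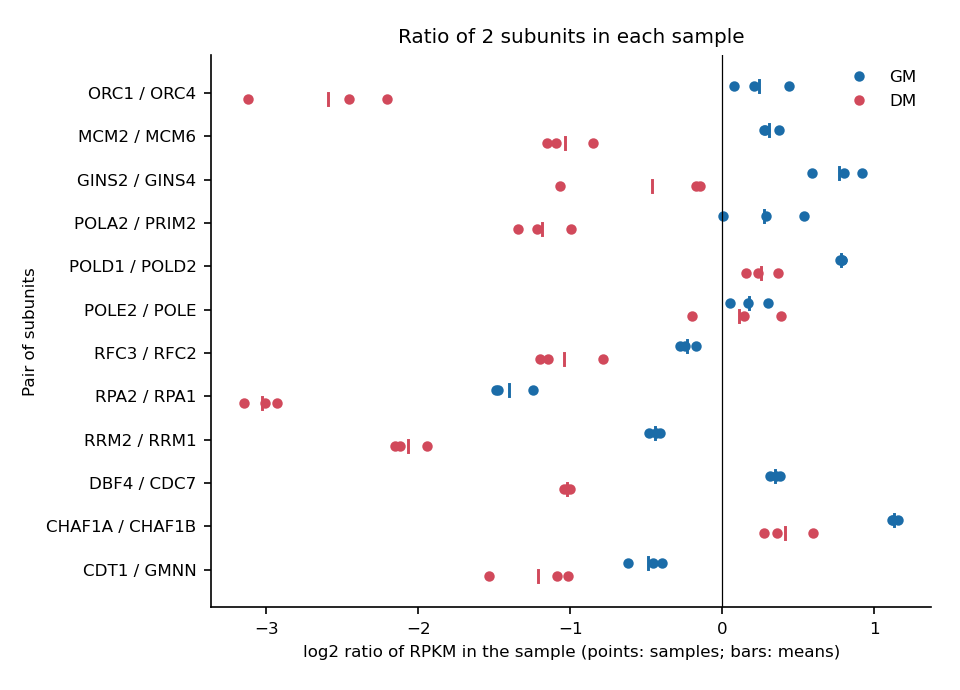
Log2 ratio of the RPKM of 2 partners in each sample, with the pair of greatest change shown for each complex. GM and DM points are apart in every pair except POLE2 to POLE, and the widest gap is that of ORC1 to ORC4 (a log2 difference of -2.83).

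The transcript counts largely repeat the gene counts. Of the 51 genes, 46 had 1 listed transcript, which held the same counts as the gene. The mRNA table listed 56 transcripts of the 51 genes, of which 45 were called lower (80.4%, beside 10.1% of 16352 transcripts tested) and none higher. No transcript's call differed from that of its gene, which for the 46 genes with 1 transcript was nearly fixed in advance. ORC1, DBF4, CDC45, POLA2 and POLD3 had 2 listed transcripts each. In ORC1 the log2 fold changes were -2.72 for both, and for CDC45 they were -1.64 and -1.54. POLA2 had the most unequal pair, with 1285, 1542 and 1189 counts on one transcript and 1610, 1914 and 1502 on the other in GM samples, and log2 fold changes of -2.40 and -2.42. The counts of a pair together exceed those of the gene, so the transcripts share reads and are not independent measurements.

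Genes of the same pathway outside the list moved in the same direction. Of 31 other replication genes, 27 were listed and tested, with a median log2 fold change of -1.59. Of the 27, 16 were called lower (beside 10.3% of all genes tested) and none higher (beside 15.0%). All 27 had DM samples under GM samples, beside 34.3% of all genes. The largest change was that of DNA2, a nuclease of Okazaki fragment processing and end resection, at 18.2, 18.7 and 18.7 CPM in GM and 2.34, 2.84 and 3.03 in DM samples, or a log2 fold change of -2.75. The smallest was that of POLE4, a histone-fold subunit of polymerase epsilon, at 44.1, 54.6 and 47.9 CPM in GM and 33.0, 39.3 and 39.9 in DM samples, or a log2 fold change of -0.38. GM and DM samples did not overlap in either gene.

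Of 13 other genes of nucleotide supply, 12 were listed and tested, with a median of -0.93. Of the 12, 5 were called lower (beside 10.3% of all genes tested) and none higher (beside 15.0%). SHMT1, a serine hydroxymethyltransferase of one-carbon metabolism, changed most, from 3.26, 3.73 and 4.04 CPM in GM to 0.711, 1.07 and 1.14 in DM samples. Its log2 fold change of -1.91 rests on low counts. DCTD, the dCMP deaminase, changed least, at 9.19, 10.7 and 11.7 CPM in GM and 6.48, 7.27 and 4.78 in DM samples, or a log2 fold change of -0.77. RRM2B and TK2, singled out after their values were seen, went the other way. RRM2B, the p53-regulated counterpart of RRM2, was at 2.31, 2.64 and 2.03 CPM in GM and 4.44, 5.44 and 3.78 in DM samples, and TK2, the mitochondrial thymidine kinase, at 3.28, 3.73 and 2.95 in GM and 5.03, 5.19 and 7.30 in DM samples. Their log2 fold changes were 0.96 and 0.81 (edgeR's adjusted p = 0.00175 and 0.00365), with every DM sample above every GM sample and neither past the fold threshold. RRM2B passed it without GM replicate 2 or DM replicate 3, at up to 1.09, and with upper quartile scaling or a filter on RPKM.

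**Figure D5:**
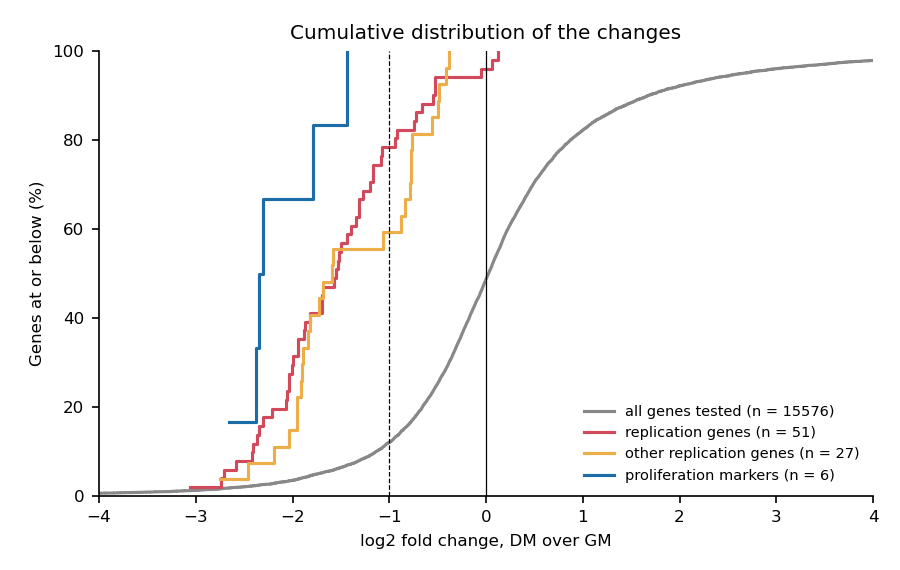
Cumulative share of genes (%) at or below each log2 fold change (DM over GM), for all genes tested, the replication genes, the other replication genes and the proliferation markers. The replication genes (median -1.55) lie to the left of all genes tested (median 0.03), near the other replication genes (median -1.59).

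The members are spread over 22 chromosomes in the deposited annotation, which lists cattle Ensembl identifiers and names no build. RRM2 (ENSBTAG00000008216) is at chromosome 11, 87466581 to 87473817, on the minus strand. UHRF1 (ENSBTAG00000002224) is at chromosome 7, 20436670 to 20469912, on the minus strand, 0.424 Mb from CHAF1A, the closest pair of members. ORC1 (ENSBTAG00000002719) is at chromosome 3, 94543867 to 94575375, on the plus strand, and CDC7 (ENSBTAG00000016307) is on the same chromosome at 52014639 to 52039702, on the minus strand. Chromosome 18 holds the most members, with CDT1, GINS2, GINS3, LIG1, ORC6 and POLD1. MCM7 is the host of 3 microRNA genes, of which bta-mir-25 had 16 to 23 counts in GM and 5 to 8 in DM samples, and the other 2 at most 1. All 3 lie on the same strand as MCM7, and whether these reads come from MCM7 RNA was not tested.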

How the data were processed

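RNA-seq of poly(A) libraries covered 3 GM and 3 DM samples. The count columns deposited by the authors hold raw counts per gene or transcript without normalization. RPKM values, also deposited by the authors, divide these counts by feature length and library sum. For genes they were recomputed to within 5.23e-12. The study's methods name HISAT2 and a buffalo assembly, the tables themselves carry cattle Ensembl identifiers without a build, and the submitters' processing notes name Bowtie 0.12.2 with mm8 and mm9, so the build and aligner behind the counts are uncertain, as is the strand setting. Deposited lists of differentially expressed features (the authors' fold changes, p-values and q-values) were not used. Columns were mapped to samples by name.

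The test was edgeR 4.0.16 in R 4.3.3 (quasi-likelihood, TMM, at least 10 counts in total, Benjamini-Hochberg over all features), with calls past 1 on the log2 scale at an adjusted p under 0.05. TMM factors were 1.03 to 1.04 in GM and 0.948 to 0.983 in DM samples. On simulated data of 15576 genes with 200 changed 4-fold, 200 were recovered and 0 unchanged genes called, and on 16352 transcripts 200 were recovered and 2 unchanged ones called. The simulation gave every feature the same dispersion, changed as many up as down among features without low counts, and had no sample apart. It checks the code and gives no error rate for these data. Subunit ratios used an exact permutation test. Python 3.11.15, pandas 2.3.3, numpy 2.4.6, scipy 1.17.1 and matplotlib 3.10.9 served for tables and plots.

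Members and lists were chosen with earlier results of these data known. Per-sample values were given for the largest and smallest change of each role, the 5 largest and 5 smallest of the list, members moving against their role, members within 0.15 of the fold threshold, and members whose call changes when a library is left out. Of the lists of other genes, the largest and smallest change were named. Alternatives were DESeq2 1.42.0, other scalings and filters, calls at any fold, calls tested against a change of 2-fold, a replicate block, ratios of counts without the length and each sample left out. Leaving out the length could not change the log2 difference of a ratio between the groups, as a gene's length is the same in every sample. Promoter and protein sequences were not analysed here.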

Additional observations from a re-analysis of the deposited data

How the results depend on the processing

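Counts of members called lower ranged from 38 to 42 over the alternatives that keep a minimum fold change, and 38 members kept their call in all of them. Genes called in either direction, 3936 over the whole table, came to 2197 when most samples (over 50%) had to reach an RPKM of 1, 9813 at any fold and 2293 when tested against a change of 2-fold. At any fold, 48 members, 27 other replication genes and 10 other nucleotide supply genes were lower. Testing against 2-fold lost ORC3 and MCM6. Library size alone brought the median of the members from -1.55 to -1.65 and that of all genes from 0.03 to -0.07, and added PRIM2 and TIPIN. CDC7 then changed sign, to -0.0361. RPA1 changed sign with upper quartile scaling (0.0123) and with the RPKM rule (0.0018). Leaving out each sample in turn gave 39 to 42 members called lower, log2 fold changes of -0.0038 to 0.21 for ORC4 and -0.0020 to 0.16 for CDC7, and a log2 difference of -0.20 to 0.0896 for the ratio of POLE2 to POLE. The cause of these changes was not tested.

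GM and DM samples share replicate numbers, but samples with the same number did not deviate together (correlations of -0.0076, -0.022 and -0.010). With a replicate block, 40 members were called lower and 3837 genes were called in all, and no member's call changed. With 3 samples a group, the ratios of subunits cannot reach p under 0.05, and GINS4, whose DM replicate 3 stood apart, has the widest interval of the members.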
